A study of Mus musculus with 12 samples.

Results

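Hearts in which the expressed allele of Ddc was deleted were compared with hearts in which that allele was intact, over every probe of the array. The ablated hearts were the 5 labelled PatKO or KO, and the expressing hearts were the 7 labelled WT or MatKO, of 12 in all. All came from mouse embryos at E15.5 on a B6;129S5 background, and 1 Illumina WG-6 array was hybridised per whole heart. The 3 WT hearts (DdcWT) carried no deletion. The 4 MatKO hearts (DdcMATΔ, Ddc-/+) had inherited a deletion of Ddc_exon1a from the mother, and the 4 PatKO hearts (DdcPATΔ, Ddc+/-) had inherited it from the father, the parent whose copy is transcribed in heart. The single KO heart (DdcΔΔ, Ddc-/-) carried the deletion on both alleles. The allele is a constitutive gene-trap deletion, present in every tissue and not in heart alone, so effects arising outside the heart cannot be told apart from those arising within it. The paper states that embryos with 2 deleted alleles die late in gestation. It also reports fewer of them than Mendelian ratios predict at an earlier stage, and non-Mendelian ratios at E15.5. The KO heart thus came from an embryo that was still present at E15.5. Litter and slide were not given for each heart in the sources used here, so p-values measure the spread between these hearts alone.

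Ddc encodes aromatic L-amino acid decarboxylase, the enzyme that makes dopamine from L-DOPA and serotonin from 5-hydroxytryptophan. In the developing heart the transcript from exon 1a is imprinted and comes from the paternal chromosome, under an imprinting control region shared with the neighbouring gene Grb10. At this stage the ventricular wall is thickening, the epicardium is supplying fibroblast and smooth muscle precursors, and the blood within the chambers carries red cells and leukocytes made in the fetal liver.

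The array values are log2 signals, background-corrected and normalised by the authors, with array medians of 5.61 to 5.62 and a range of 4.58 to 15.59. Differences are given as ablated minus expressing on the log2 scale, and values are listed for PatKO replicates 1 to 4 followed by the KO heart, with the lowest, median and highest of the 7 expressing hearts. Each probe was fitted with limma, the Benjamini-Hochberg adjustment ran over all 45267 probes, and a probe was called at an adjusted p of 0.05. A second and looser criterion, taken from the study's methods, was an unadjusted p under 0.01 with an absolute difference over 0.4. Probes with a mean under 7 over all arrays are termed dim, since they lie close to the background.

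All 3 Ddc probes fell in the ablated hearts. Probe ILMN_1229396 read 6.32, 6.34, 6.13, 5.86 and 4.86 in the ablated hearts, against 10.45, 11.44 and 12.58 in the expressing hearts, a difference of −5.56 (SE 0.33, limma adjusted p = 5.41e-06). The arms were more than 4 units apart at their nearest hearts, and the ablated signal was 2.12% of the expressing signal. Every ablated value of this probe was under 7, close to the background, so this share is not a measure of the transcript that remained. Probe ILMN_2628647 read 9.07, 9.15, 9.67, 9.73 and 8.45 against 12.97, 13.18 and 13.49, a difference of −4.0 (SE 0.19, limma adjusted p = 1.05e-06). Probe ILMN_1260450 read 10.40, 10.22, 10.39, 10.44 and 9.12 against 13.42, 13.82 and 14.12, a difference of −3.66 (SE 0.22). The signals left at these probes were 6.25% and 7.92% of the expressing level, and no heart of one arm lay in the range of the other at any of the 3 probes (exact permutation p = 0.0013 for each, two-sided, the smallest that 792 splits of the hearts can give). The KO heart was the lowest of the 12 at all 3. It lay −1.30, −0.96 and −1.24 from the PatKO mean at the probes in the order given, but 1 heart gives no spread of its own. By quantitative PCR, the paper reports that PatKO hearts keep a small amount of maternal Ddc transcript. The position of these probes in the transcript, and so against the exon that was deleted, was not determined.

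**Figure D1:**
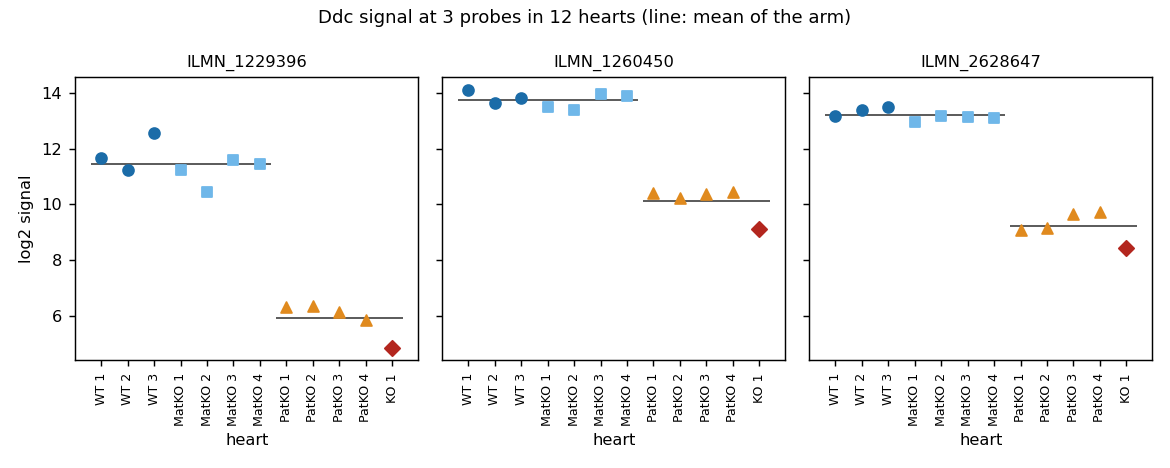
Log2 signal of the 3 Ddc probes in each of the 12 hearts, with points for single hearts, grouped by genotype. At each probe the 5 PatKO and KO hearts sit below all 7 WT and MatKO hearts, and the KO heart is the lowest.

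RefSeq annotates 2 start sites for Ddc on the minus strand of mouse chromosome 11 (GRCm38.p6). They are shown because the transcript of the heart has a first exon of its own. Each window holds 250 bases before and 50 bases from the start, read 5′ to 3′ on the gene's strand, and capitals mark the bases from the start onwards. The forward primer that the methods give for exon 1a matches the transcribed bases of the second window exactly and is not found in the first.
Ddc, chr11:11898095-11898394: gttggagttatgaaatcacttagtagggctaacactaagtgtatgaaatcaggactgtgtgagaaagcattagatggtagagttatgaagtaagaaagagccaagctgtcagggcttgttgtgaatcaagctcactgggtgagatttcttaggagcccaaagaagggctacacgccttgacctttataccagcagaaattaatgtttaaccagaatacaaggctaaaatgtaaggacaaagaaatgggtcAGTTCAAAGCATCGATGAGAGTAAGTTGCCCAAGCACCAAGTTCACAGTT
Ddc, chr11:11890359-11890658: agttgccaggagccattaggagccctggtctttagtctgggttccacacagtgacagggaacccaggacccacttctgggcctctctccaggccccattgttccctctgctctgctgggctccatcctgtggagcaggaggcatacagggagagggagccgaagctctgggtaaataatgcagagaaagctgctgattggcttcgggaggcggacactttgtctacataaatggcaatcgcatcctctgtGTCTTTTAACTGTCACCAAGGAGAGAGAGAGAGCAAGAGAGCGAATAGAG

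Beyond Ddc the differences were small relative to the spread between hearts. Of 45267 probes 4 (0.00884%) were called, the 3 of Ddc and ILMN_1240922, which the annotation used here gives no gene. That probe rose, with 5.89, 6.33, 6.82, 7.37 and 6.47 in the ablated hearts against 4.90, 5.01 and 5.32 in the expressing hearts (difference 1.53, SE 0.20, limma adjusted p = 0.0393). The arms did not overlap, but every expressing value was under 7 and the probe was dim, with a mean of 5.69. The paper's supplementary list also has this probe higher in PatKO than in MatKO hearts, from these same arrays. The call was lost when any one of the expressing hearts, PatKO replicate 2 or the KO heart was left out (limma adjusted p from 0.0739 to 0.152). The looser criterion was met by 318 probes (0.702%), of which 174 (0.384%) were higher and 144 (0.318%) lower in the ablated hearts. Of the 318, 172 were dim. Without PatKO replicate 3 the number called was 19, and without WT replicate 3 the number that met the criterion was 540. The criterion was met in the fit of all hearts and in each of the 12 fits that left out 1 heart by 115 probes, and 51 of these were not dim, among them 39 named genes, 15 higher and 24 lower with Ddc included. The 12 genes with the largest increases and the 12 with the largest decreases of these, Ddc aside, are described below by what they encode. None of the 24 was called, and their limma adjusted p ran from 0.471 to 0.753. Some of the 24 are also members of the gene lists below, which were chosen with earlier results of these data known. The counts for those lists are therefore not independent of that choice.

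Of the 12 increases, 3 encode secreted proteins of the liver. Vtn (vitronectin, an adhesive plasma glycoprotein) read 8.70, 8.05, 6.87, 8.63 and 10.28 in the ablated hearts against 5.19, 5.39 and 7.61 in the expressing hearts, a difference of 2.56 (SE 0.54). Only MatKO replicate 3 reached the ablated range, which PatKO replicate 3 extends downwards. Fgg (the fibrinogen gamma chain) read 9.42, 8.96, 6.41, 9.77 and 10.17 against 5.66, 6.29 and 7.98, a difference of 2.31 (SE 0.59), and MatKO replicates 1, 3 and 4 lay within the ablated range. Apom (apolipoprotein M, a lipid carrier of high-density lipoprotein) read 8.38, 8.72, 7.44, 8.37 and 9.27 against 6.96, 7.47 and 7.93, a difference of 1.00 (SE 0.27), with 4 expressing hearts inside the ablated range. All 3 genes were highest in the KO heart.

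The wider list of liver plasma proteins moved with them. It holds Vtn and Fgg, which were picked for their difference in these hearts, so its counts are not independent of that choice. Of its 27 measured genes 26 were higher in the ablated hearts, with a median difference of 1.98, and 19 had an unadjusted p under 0.05, against 3.34% of all 19056 genes in that direction (none of the 27 was lower at that p, against 3.02% of all genes). The mean of the list, as a deviation from the mean of all 12 hearts, was 1.75, 1.14, −1.38, 1.60 and 2.37 in the ablated hearts, −1.22, −1.21 and −1.04 in the WT hearts and −1.39, −1.43, 0.62 and 0.19 in the MatKO hearts. PatKO replicate 3 thus had no more of these transcripts than the expressing hearts, and without it the median was 2.61. Over the 14 genes that were not dim the median was 2.86. The single probe of Alb (albumin), the most abundant plasma protein, read 4.84 to 5.32 in the ablated and 4.78 to 4.93 in the expressing hearts, and that of Fgb (the fibrinogen beta chain) 4.93 to 5.05 and 4.65 to 5.03, both close to the lowest value on the arrays. With the mean of the liver list as a covariate, Vtn differed by 0.95, Fgg by 0.47 and Apom by 0.25. Vtn and Fgg are members of that list, so their differences shrink in part by construction. Apom is not a member. In whole hearts, more cells of a type, more RNA per cell and tissue carried over from another organ cannot be told apart.

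Promoter windows of this list were searched on both strands for letters that the hepatocyte factors HNF1 and HNF4 are known to bind. GTTAATNAT was present in 3 of 27 windows of 24 genes (11.1%), against 263 of 32851 windows in all of RefSeq (0.801%). CAAAGTCCA was in none of the 27, against 0.475% of all windows. The 3 windows with the first motif, its match in capitals, are shown beside the values of their genes, which differed by 3.19 in Fga, 3.01 in Afp and 0.12 in Alb. A match is a run of letters and does not show a bound site.
Fga, chr3:83025903-83026202, plus strand: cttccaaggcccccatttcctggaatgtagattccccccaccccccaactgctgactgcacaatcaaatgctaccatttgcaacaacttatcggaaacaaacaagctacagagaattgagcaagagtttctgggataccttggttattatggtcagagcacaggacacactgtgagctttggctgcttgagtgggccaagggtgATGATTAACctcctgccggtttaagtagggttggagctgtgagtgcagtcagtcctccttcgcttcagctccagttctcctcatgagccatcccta
Alb, chr5:90460620-90460919, plus strand: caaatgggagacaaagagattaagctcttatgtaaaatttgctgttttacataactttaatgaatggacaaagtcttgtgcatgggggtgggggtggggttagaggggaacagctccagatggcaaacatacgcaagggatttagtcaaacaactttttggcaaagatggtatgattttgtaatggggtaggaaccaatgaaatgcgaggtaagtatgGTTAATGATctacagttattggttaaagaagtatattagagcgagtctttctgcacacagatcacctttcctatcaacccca
Afp, chr5:90490464-90490763, plus strand: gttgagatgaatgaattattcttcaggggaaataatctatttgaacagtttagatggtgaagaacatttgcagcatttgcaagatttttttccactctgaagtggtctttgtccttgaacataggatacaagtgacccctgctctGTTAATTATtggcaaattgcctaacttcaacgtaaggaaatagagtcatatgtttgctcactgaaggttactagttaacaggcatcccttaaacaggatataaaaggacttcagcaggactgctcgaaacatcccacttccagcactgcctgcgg

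A further 5 increases encode proteins of neutrophils and other blood leukocytes. Stfa1 (stefin A1, an inhibitor of cysteine proteases) read 10.84, 12.05, 10.40, 10.34 and 10.79 against 7.33, 9.08 and 9.88, a difference of 2.02 (SE 0.44, exact permutation p = 0.0025). It was the only one of the 12 increases in which the arms did not overlap, and its other probe gave 1.98. S100a9 (a calcium-binding subunit of calprotectin) read 9.69, 11.05, 9.15, 9.42 and 10.39 against 6.24, 8.10 and 9.33, a difference of 2.12 (SE 0.56). Ltf (lactoferrin, an iron-binding protein of neutrophil granules) read 7.76, 9.10, 7.21, 7.68 and 8.45 against 5.65, 5.91 and 7.76, a difference of 1.67 (SE 0.41). WT replicate 2 was the expressing heart that reached the ablated range of both S100a9 and Ltf, and PatKO replicate 2 was the highest heart of all 3 genes. Cstdc4 (a cystatin-domain gene of the stefin cluster) read 8.42, 9.86, 8.37, 8.29 and 8.25 against 5.54, 7.07 and 8.33, a difference of 1.78 (SE 0.42), with WT replicate 2 in the ablated range. The stefin genes are near-identical copies, and a probe of one may carry signal of another. Plek (pleckstrin, a kinase substrate of platelets and leukocytes) read 6.95, 8.27, 7.57, 7.25 and 7.81 against 6.18, 6.81 and 7.05, a difference of 0.78 (SE 0.21), and 3 expressing hearts lay within its ablated range.

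Of 22 measured genes of neutrophil granules and stefins 21 were higher in the ablated hearts, with a median of 0.54, and 10 had an unadjusted p under 0.05, against 3.34% of all genes. The 7 that were not dim had a median of 1.67. Stfa1, S100a9 and Ltf are members picked for their difference in these hearts, so these counts are not independent of that choice. The list mean was 0.28, 1.13, −0.03, 0.25 and 0.60 in the ablated hearts, −0.85, 0.15 and −0.32 in WT hearts and −0.46, −0.65, 0.09 and −0.20 in MatKO hearts. The highest expressing hearts, WT replicate 2 and MatKO replicate 3, therefore stood above PatKO replicate 3. Among the members not yet described, Camp (the antimicrobial peptide cathelicidin) differed by 1.47, S100a8 by 1.61 and Mpo (myeloperoxidase) by 1.92. With the liver list as a covariate the list median was 0.24, while Stfa1 differed by 1.51 and Cstdc4 by 1.76.

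Most genes of the definitive red cell were higher in the ablated hearts. Alas2 (the erythroid enzyme that starts heme synthesis) read 13.53, 13.97, 13.50, 13.70 and 13.75 against 11.38, 12.35 and 14.04, a difference of 1.28 (SE 0.36). Slc25a37 (mitoferrin 1, the mitochondrial iron importer of red cell precursors) read 12.63, 12.55, 12.24, 12.55 and 12.78 against 10.89, 11.60 and 12.66, a difference of 0.94 (SE 0.25). Its other probe, with a mean of 9.13, gave 0.37 (SE 0.27) and did not meet the criterion. WT replicate 3 was the highest of all hearts for Alas2 and lay within the ablated range of Slc25a37, and the other 6 expressing hearts lay below every ablated heart in both genes. Against the WT hearts alone, the differences of Alas2 and Slc25a37 were 0.89 and 0.70, with unadjusted p in limma of 0.077 and 0.065. Ermap (an erythroid membrane protein) read 7.88, 6.54, 5.32, 7.11 and 8.35 against 4.95 to 5.34, a difference of 1.90. Gfi1b (a transcriptional repressor of red cell and platelet precursors) read 7.29, 6.31, 5.52, 6.89 and 8.32 against 5.05 to 6.13, a difference of 1.52. Both were highest in the KO heart, and PatKO replicate 3 lay within the expressing range of each. Add2 (beta-adducin of the membrane skeleton), at 6.84, 6.82, 6.60, 7.23 and 7.39 against 6.14 to 6.59, differed by 0.61 (SE 0.14), and its arms did not overlap.

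Of 23 measured red cell genes 21 were higher in the ablated hearts, 10 of them at an unadjusted p under 0.05, with a median of 0.42. Over all genes 47.9% were higher and 3.34% were higher at that p. Alas2 and Slc25a37 are members picked for their difference in these hearts, so the counts are not independent of that choice. The list mean was 0.41, 0.19, −0.14, 0.46 and 0.79 in the ablated hearts, and between −0.68 and 0.09 in the expressing hearts, so that again PatKO replicate 3 stood with the latter. Hba-a1 (adult alpha-globin) differed by −0.00 at values of 15.41 to 15.53, near the upper limit of the signal range. The embryonic globins Hbb-y, Hbb-bh1 and Hba-x, which mark the primitive red cells of the yolk sac, differed by −0.89, −0.61 and −0.37, and none had an unadjusted p under 0.05. The KO heart was opposed to the PatKO hearts. The mean of the 3 was 1.69 in the KO heart, −0.10, −1.40, −1.47 and −0.54 in PatKO hearts, 0.05 to 0.76 in 6 expressing hearts and −1.03 in WT replicate 3. Without the KO heart the median of the 3 was −1.16, with all 3 lower at an unadjusted p under 0.05, without PatKO replicate 3 it was −0.25, and with the liver list as a covariate it was −1.52, with 2 of 3 lower at that p.

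Windows of the red cell list were searched for AGATAA, the letters bound by GATA factors, on both strands. They were found in 7 of 17 windows (41.2%), against 11.2% of all windows, 7.41% in the liver list and 25% in the neutrophil list. The window of Alas2 is shown because this gene is one of the 12 increases, with the match, on the opposite strand, in capitals.
Alas2, chrX:150547167-150547466, plus strand: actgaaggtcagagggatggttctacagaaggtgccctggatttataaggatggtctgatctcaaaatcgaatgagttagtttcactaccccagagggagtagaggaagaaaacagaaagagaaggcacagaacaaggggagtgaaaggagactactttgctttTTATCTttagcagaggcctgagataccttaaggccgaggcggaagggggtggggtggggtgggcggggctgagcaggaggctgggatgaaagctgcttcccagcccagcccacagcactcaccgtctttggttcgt

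The last 2 of the 12 increases were not grouped above with blood or liver genes. Stmn2 (stathmin 2, a tubulin-binding protein of growing neurons) read 7.75, 7.83, 7.48, 8.53 and 9.68 against 6.46, 6.86 and 7.66, a difference of 1.32 (SE 0.34). MatKO replicate 2 was the sole expressing heart in the ablated range, and the KO heart lay 1.78 above the PatKO mean. The 23 measured genes of neurons, ganglia and neural crest had a median of 0.12, with 17 higher and 6 lower. An unadjusted p under 0.05 was found in 3 of those higher, Stmn2, Stmn3 at 0.73 and Sox10 at 0.34, against 3.34% of all genes in that direction. Foxd3 was lower at that p, by −0.22. Without the KO heart the list median was 0.07, and with the liver list as a covariate it was −0.01, with 11 higher and 12 lower. Only 4 of the 23 were not dim, and their list mean was highest in the KO heart, at 0.56. Reln (reelin, a secreted glycoprotein that guides migrating neurons and is made by lymphatic endothelium) read 10.06, 10.88, 10.41, 10.81 and 10.77 against 8.89, 9.75 and 10.58, a difference of 0.98 (SE 0.26), with WT replicate 3 in the ablated range. Of 24 endothelial, endocardial and lymphatic genes 14 were higher and 10 lower, with a median of 0.03 (−0.03 against the MatKO hearts alone).

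The decreases were smaller than the increases, with a largest difference of −0.84 against 2.56. In 6 of the 12 decreases and 1 of the 12 increases the arms did not overlap. Over the whole array 77 probes (0.17%) had arms apart in the direction of decrease and 52 (0.115%) in that of increase, but the 24 genes were chosen for their difference in these same hearts, so nothing is read from their share. The KO heart was farther from the expressing hearts than every PatKO heart in 5 of the 12 increases (Vtn, Fgg, Stmn2, Apom and Slc25a37) and in none of the 12 decreases.

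Upk1b and Tcf21 are epicardial markers, and both had arms that did not overlap. Upk1b (uroplakin 1b, a tetraspanin of mesothelium and epicardium) read 8.74, 9.04, 8.22, 9.36 and 9.24 against 9.48, 9.70 and 10.28, a difference of −0.84 (SE 0.19, exact permutation p = 0.0013). Tcf21 (a basic helix-loop-helix factor needed for cardiac fibroblast precursors of the epicardium) read 10.34, 10.56, 10.38, 10.68 and 10.61 against 10.72, 11.15 and 11.36, a difference of −0.55 (SE 0.11, exact permutation p = 0.0038). With the liver list as a covariate these were −1.11 and −0.65. A further 4 members of the epicardial list were lower at an unadjusted p under 0.05. Upk3b (another uroplakin) read 9.58, 10.14, 9.05, 10.19 and 10.59 against 10.30 to 10.92 and differed by −0.63. Lrrn4 (a leucine-rich repeat protein of mesothelium) differed by −0.80, Bnc1 (basonuclin 1, a zinc-finger factor) by −0.72 and Krt18 (a simple epithelial keratin) by −0.67. In none of these 4 was the KO heart below the expressing range.

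Of 16 measured epicardial genes 11 were lower and 5 higher, with a median of −0.15, and 6 were lower at an unadjusted p under 0.05, against 3.02% of all genes. Upk1b and Tcf21 are among the 6 and were picked for their difference in these hearts, so the counts are not independent of that choice. Tbx18 and Aldh1a2, an epicardial transcription factor and the epicardial enzyme of retinoic acid synthesis, differed by 0.55 and 0.17. The list mean was −0.28, −0.06, −0.52 and −0.08 in PatKO hearts, −0.01 to 0.21 in the expressing hearts and 0.22 in the KO heart, which was the highest of all. The median depended on the hearts included. Without PatKO replicate 3 it was −0.02 with 3 genes lower at that p, and without the KO heart it was −0.36 with 8. With Xist as a covariate, to account for embryo sex, it was −0.02. It was −0.31 against the WT hearts alone, −0.04 against the MatKO hearts alone and −0.38 over the 13 genes that were not dim. Of 25 fibroblast matrix genes, the products of epicardial derivatives, 14 were lower and 11 higher, with a median of −0.12 (−0.01 against the WT hearts alone). Col1a2 (a type I collagen chain) had the widest difference of those lower at an unadjusted p under 0.05, at −1.16, but read 8.79 in PatKO replicate 2, 8.37 in the KO heart and 10.79 to 11.43 in the other ablated hearts, against 10.59 to 12.02. The other chain, Col1a1, differed by 0.14.

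Sema5a (a transmembrane semaphorin, an axon and endothelial guidance molecule) read 8.80, 9.76, 9.98, 9.94 and 9.69 against 10.03, 10.27 and 11.09, a difference of −0.81 (SE 0.23), with no overlap of the arms. A second Sema5a probe gave −0.80, and 3 others did not meet the criterion. Of 21 genes of Slit-Robo, semaphorin and endothelin signalling 14 were lower and 7 higher, with a median of −0.14, and 4 were lower at an unadjusted p under 0.05, against 3.02% of all genes. Besides Sema5a these were Sema3a (a secreted chemorepellent) at −0.40, Ednrb (an endothelin receptor) at −0.35 and Unc5b (a netrin receptor of endothelium) at −0.23.

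Vgll4 (a TEAD cofactor that opposes YAP in the Hippo pathway) read 8.97, 9.06, 9.48, 9.27 and 9.15 against 9.46, 9.71 and 9.97, a difference of −0.54 (SE 0.11, exact permutation p = 0.0025). WT replicate 1 alone lay in the ablated range. Yap1 itself, the coactivator of the pathway, read 10.10, 10.17, 10.04, 10.32 and 10.63 against 10.18 to 10.70 and differed by −0.29, and the KO heart was in the upper part of the expressing range. Of 23 Hippo and TEAD genes 13 were lower and 10 higher, with a median of −0.11, and no others had an unadjusted p under 0.05. At that p 3.02% of all genes were lower. The median was −0.01 without PatKO replicate 3 and 0.05 against the WT hearts alone.

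Moxd1 (a monooxygenase whose sequence resembles dopamine beta-hydroxylase) read 8.47, 8.31, 8.47, 8.45 and 8.92 against 8.70, 9.31 and 9.55, a difference of −0.69 (SE 0.16). Its other probe gave −0.45, and WT replicate 2 lay in the ablated range. Nts (the precursor of the peptide neurotensin) read 8.41, 8.47, 8.85, 8.28 and 8.58 against 8.76, 9.17 and 9.66, a difference of −0.70 (SE 0.17), with MatKO replicate 2 in the ablated range. Pde1a (a calmodulin-dependent phosphodiesterase that breaks down cyclic nucleotides) read 8.94, 8.51, 8.60, 8.79 and 8.87 against 9.0, 9.20 and 9.68, a difference of −0.54 (SE 0.13), and its arms did not overlap. Its other probes gave −0.51, −0.46 and 0.01.

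Rhobtb1 read 8.92, 9.41, 9.23, 8.95 and 9.08 against 9.38, 9.80 and 10.14, a difference of −0.68 (SE 0.13), while its brighter probe, with a mean of 12.96, gave −0.05. Rab13 (a small GTPase of membrane traffic to cell junctions) read 6.71, 6.87, 6.77, 6.59 and 6.97 against 6.67, 7.59 and 7.76, a difference of −0.65 (SE 0.17), and its other probe gave −0.54. WT replicate 3 lay in the ablated range of both genes, and every ablated value of Rab13 was under 7. Clec4g (a C-type lectin of liver sinusoidal endothelium) read 8.89, 8.33, 8.80, 8.76 and 8.95 against 8.87, 9.23 and 9.77, a difference of −0.56 (SE 0.15), opposite in sign to the liver plasma proteins.

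The arms did not overlap in the last 2 of the 12. Wdr38 (a WD-repeat protein) read 6.69, 6.69, 6.88, 6.58 and 6.89 against 6.94, 7.37 and 7.84, a difference of −0.65 (SE 0.14). Pisd-ps1 (a pseudogene of phosphatidylserine decarboxylase, so that its probe may carry signal of the parent gene or another copy) read 7.75, 8.43, 8.08, 8.31 and 8.07 against 8.56, 8.64 and 8.91, a difference of −0.58 (SE 0.11, exact permutation p = 0.0013). A further 11 genes were lower by 0.46 to 0.54 with each heart left out, among them Npr3 (the natriuretic peptide clearance receptor) and Bace2 (an aspartyl protease), and 3 more were higher, Cp (ceruloplasmin, a copper-carrying plasma protein) by 0.77, Habp4 by 0.63 and Slc25a42 (a mitochondrial coenzyme A carrier) by 0.61.

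**Figure D2:**
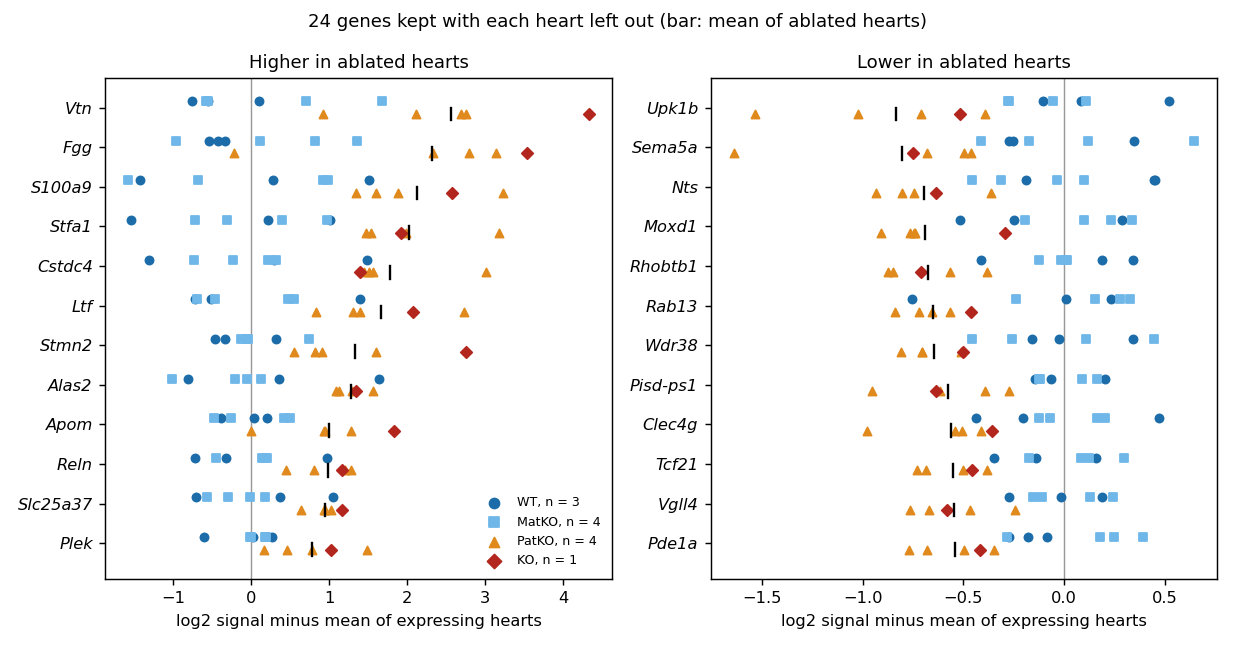
Deviation of each heart from the mean of the 7 expressing hearts, in log2 units, for the 24 genes described above, with 1 line per gene, a point per heart coloured by genotype and a bar at the mean of the ablated hearts. Stfa1 and 6 of the decreases show no overlap of the arms, and the KO heart is the extreme ablated heart for Vtn, Fgg, Stmn2, Apom and Slc25a37.

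No common shift was seen in the rest of the monoamine pathway, but most of its members were dim. Of 20 measured enzymes, stores and transporters 11 were higher and 9 lower, with a median of 0.02, and Ddc was the single member with an unadjusted p under 0.05. Only 8 of the 20, Ddc among them, were not dim. Gch1, Pts, Spr and Qdpr, which make and regenerate the cofactor tetrahydrobiopterin, differed by 0.14, 0.02, −0.06 and −0.11. Maoa and Maob, the monoamine oxidases, differed by 0.10 and 0.02, Aldh2, which clears their aldehyde products, by 0.11 and Slc18a2, the vesicular monoamine transporter, by −0.32. Th, Tph1 and Tph2, the hydroxylases that supply the substrates of Ddc, lay near the lowest values on the arrays, where a change could not be detected. The same holds for Maoa, at 4.68 to 5.05 in the ablated and 4.64 to 4.94 in the expressing hearts. All 20 measured serotonin, dopamine and adrenergic receptor genes were dim. Htr4 at 0.31 and Drd1 at 0.25 were higher at an unadjusted p under 0.05, against 3.34% of all genes.

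Grb10, which shares the imprinting control region, differed by 0.01 (SE 0.07), but its values of 15.18 to 15.44 are close to the highest on the arrays, where a difference may be compressed. Of 22 imprinted genes other than Ddc 9 were higher and 13 lower, with a median of −0.02. Dlk1 (a paternally expressed Notch ligand-like protein) was higher by 0.32, and Cdkn1c (a maternally expressed inhibitor of the cell cycle) and Ndn (a paternally expressed growth suppressor) were lower by −0.34 and −0.17, each at an unadjusted p under 0.05. Igf2 differed by −0.04 at values over 15. Among the 40 nearest measured genes of chromosome 11, 20 on each side of Ddc, 21 were higher and 19 lower, with a median of 0.00. An unadjusted p under 0.05 was found in 4, Plek, Ikzf1 (a lymphoid and erythroid zinc-finger factor) at 0.65, Rab1a at −0.53 and Igfbp3 (an insulin-like growth factor binding protein) at −0.47, and only Plek and Rab1a met the criterion. Over all genes 3.34% were higher and 3.02% lower at that p, and 0.702% of all probes met the criterion. Fignl1, the neighbour on the side away from Grb10, differed by −0.10.

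**Figure D3:**
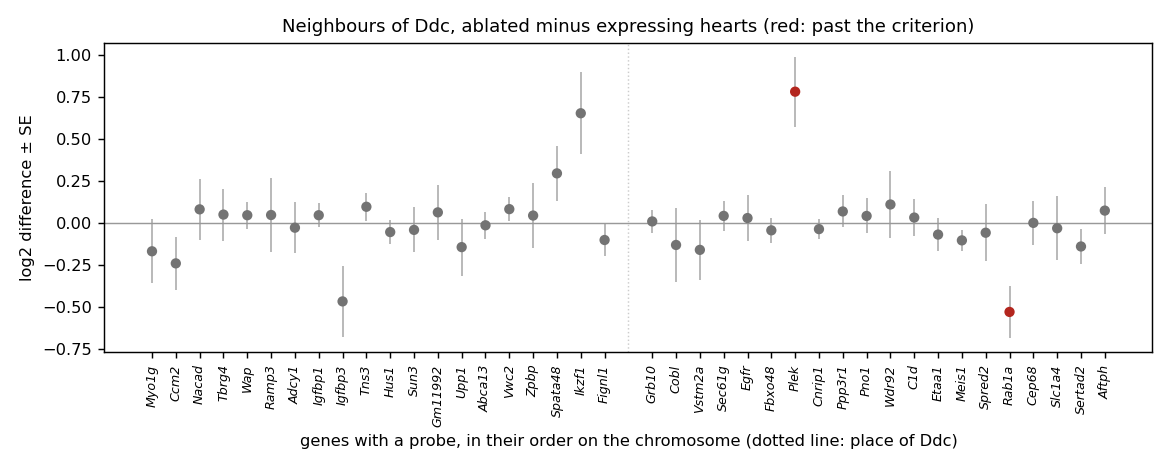
Difference between arms (ablated minus expressing, log2, with its SE) for the 20 nearest measured genes on each side of Ddc, in gene order along chromosome 11, with a dotted line at the place of Ddc itself. Grb10 is at 0.01, and Plek and Rab1a are the neighbours that met the criterion.

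Genes of the heart muscle itself differed little. Of 25 sarcomere and Z-disc genes, 24 of which were not dim, 16 were higher and 9 lower, with a median of 0.04. Mypn (myopalladin) was higher by 0.46 and Nebl (nebulette) lower by −0.37 at an unadjusted p under 0.05, and both are proteins of the Z-disc. At that p 3.34% of all genes were higher and 3.02% lower. Of 21 calcium-handling and ion channel genes 15 were higher, with a median of 0.08 and Ryr2 (the calcium release channel) at 0.21. Among 20 core cardiac transcription factors the median was 0.04, and Tbx20 (a T-box repressor) was lower by −0.22. Nppa (atrial natriuretic factor) differed by −0.01 at values of 15.28 to 15.47, near the upper limit of the signal range.

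Growth signals of the compact wall had a median of −0.03 over 28 genes, 11 higher and 17 lower, with Bmp4 (a bone morphogenetic protein) at −0.43, Igf1 at −0.22 and Tgfb2 at −0.16 lower and Insr (the insulin receptor) at 0.22 higher at an unadjusted p under 0.05. Over all genes 3.02% were lower and 3.34% higher at that p. Of 22 Notch and trabecular genes 13 were lower, with a median of −0.05 and Hey1 (a Notch target) at −0.44. Of 28 canonical Wnt and R-spondin genes 20 were lower, with a median of −0.12 (−0.05 against the WT hearts alone), but none had an unadjusted p under 0.05 in all hearts and 4 were lower at that p without the KO heart. Cell division and DNA replication showed no common direction, with 19 of 37 genes higher, 18 lower and a median of 0.01. Mcm3 (a subunit of the replicative helicase) differed by −0.45 and Rrm2 (a ribonucleotide reductase subunit) by 0.26, in opposite directions at an unadjusted p under 0.05.

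Genes of energy metabolism differed by small amounts whose size, and in part direction, depended on the control genotype. Of 32 genes of fatty acid uptake and oxidation 25 were higher, with a median of 0.06, but none had an unadjusted p under 0.05, and the median was −0.05 against the WT hearts alone and 0.15 against the MatKO hearts alone. Of 31 citric acid cycle and respiratory chain genes 22 were higher, with a median of 0.10 (0.02 against the WT hearts alone and 0.13 against the MatKO hearts alone), and 3 had such a p, Pdhb (a pyruvate dehydrogenase subunit) at 0.58, Atp5a1 (the alpha subunit of ATP synthase) at 0.23 and Ndufa9 (a complex I subunit) at 0.17. Slc2a4 (the insulin-responsive glucose transporter) at 0.40 and Ldhb (a lactate dehydrogenase subunit) at 0.34 were higher among 19 genes of glucose transport and glycolysis, whose median was 0.01. The 21 genes of the hypoxia response had a median of −0.01, with none at an unadjusted p under 0.05 (−0.13 against the WT hearts alone and 0.09 against the MatKO hearts alone). Without PatKO replicate 3, no citric acid cycle or respiratory chain gene had an unadjusted p under 0.05. Over all named genes 9124 were higher and 9932 lower, with 3.34% higher at that p.

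**Figure D4:**
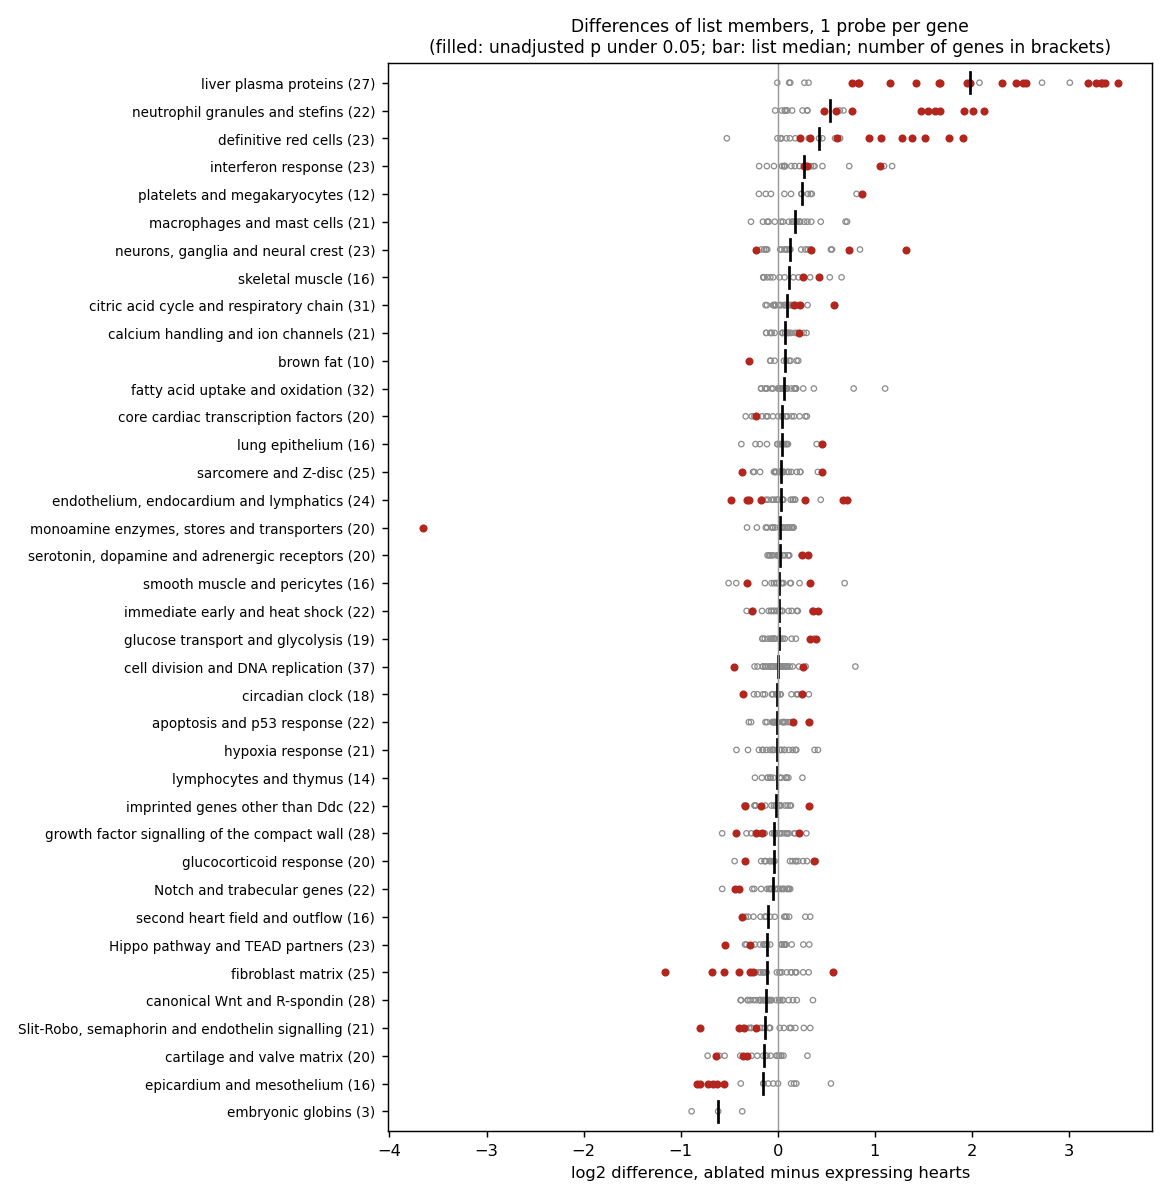
Difference between arms (ablated minus expressing, log2) of the measured genes of each list, sex-linked genes aside, with 1 point per gene, filled where the unadjusted p was under 0.05, and a bar at each list's median. Liver plasma proteins (median 1.98), neutrophil genes (0.54) and definitive red cell genes (0.42) lie to the right, and most other lists straddle 0.

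Interferon response genes were higher in 2 ablated hearts rather than in all. Of 23 genes 20 were higher, with a median of 0.27, and 3 had an unadjusted p under 0.05, Irf7 at 0.30, Ifit2 at 0.27 and Oasl2 at 1.05. Over all genes 3.34% were higher at that p. The list mean was 0.61 and 0.63 in PatKO replicates 2 and 3 and between −0.31 and 0.08 in the other 10 hearts. Oasl2 (an oligoadenylate synthetase-like protein) read 7.0, 9.61, 9.47, 7.46 and 8.26 against 6.69 to 8.38. Usp18 (the protease that removes the ubiquitin-like protein Isg15) read 8.26 and 8.32 in those 2 hearts and 5.16 to 6.54 in the others. Without PatKO replicate 3 the list median was 0.15.

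**Figure D5:**
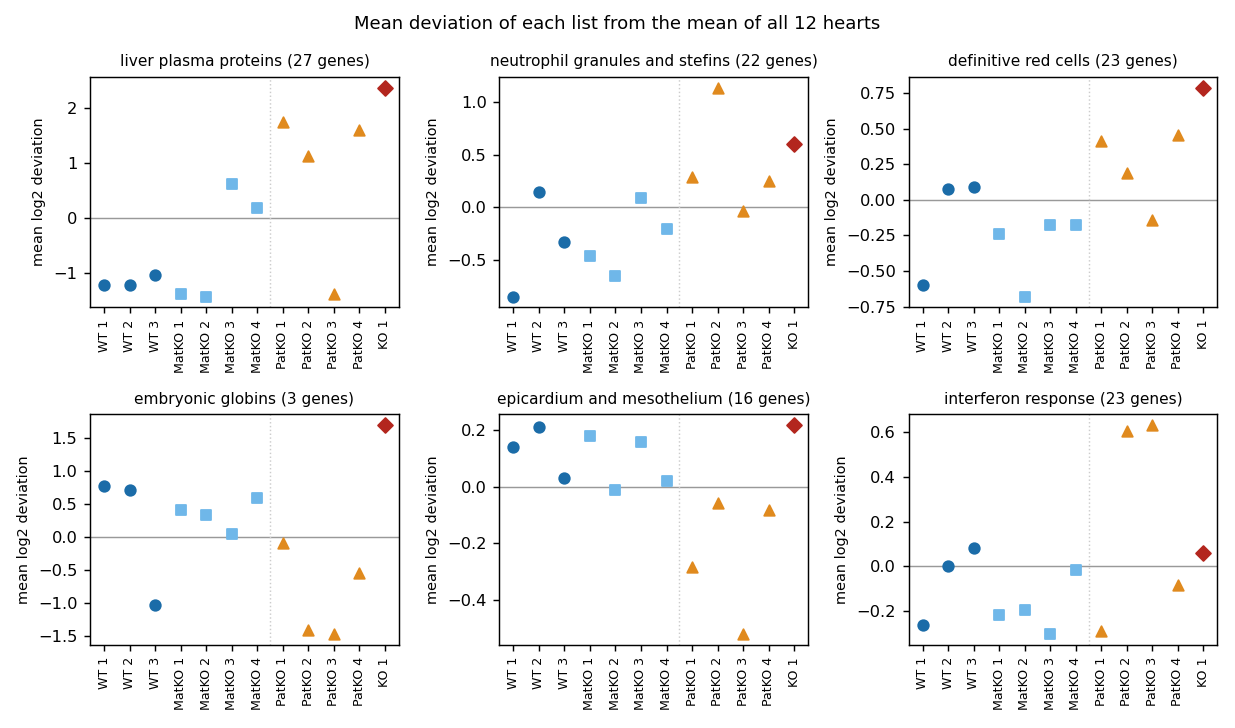
Mean deviation of the gene lists in each heart from the mean of all 12 hearts, in log2 units, with a point per heart coloured by genotype. PatKO replicate 3 (−1.38) lies with the expressing hearts for liver plasma proteins, the KO heart is the highest for liver, red cell and epicardial genes, and PatKO replicates 2 and 3 stand above the rest for interferon genes.

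The genotypes joined in each arm were set against each other in a fit of the 4 genotypes. Between MatKO and WT hearts no probe was called, 318 (0.702%) met the criterion, 2211 had an unadjusted p under 0.05, and the smallest limma adjusted p was 0.813. Between the KO heart and the PatKO hearts 15 probes (0.0331%) were called, 12 higher and 3 lower, and 598 (1.32%) met the criterion, 469 of them higher. The 24 genes described above had the same direction against the WT hearts alone and against the MatKO hearts alone. An unadjusted p under 0.05 was found in 22 against WT and in all 24 against MatKO. The genes were chosen for their difference in these same hearts, so nothing is read from these counts. Of 25 values, those of the 24 genes and of ILMN_1240922, 16 lost the criterion or the call against the WT hearts alone and 6 against the MatKO hearts alone. The KO heart lay within the range of the PatKO hearts in 14 of the 24, 6 increases and 8 decreases. Xist, which marks female cells, exceeded 10 in 6 of the 7 expressing and 3 of the 5 ablated hearts, and with Xist as a covariate all 24 genes still met the criterion. With the liver list as a covariate 17 of 25 values, those of the 24 genes and of ILMN_1240922, no longer met the criterion or the call, and all kept their direction. Several of these kept their size while the p rose, among them Cstdc4 (1.76 against 1.78), Reln (0.93 against 0.98), Plek (0.78 in both), Clec4g (−0.61 against −0.56) and ILMN_1240922 (1.71 against 1.53). Those that still did were Vtn (itself a member of the liver list), Upk1b, Moxd1, Rhobtb1, Rab13, Pisd-ps1, Tcf21 and Pde1a.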

How the data were processed

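The deposited values are log2 signals that the authors had background-corrected with neqc and normalised between arrays. GenomeStudio and limma are named in the submitters' processing notes, without versions. The methods name Affymetrix arrays, but the probe names are those of Illumina. A scanner table of 24 columns was not used, since its columns could not be paired with hearts, and slides were not given per heart. Array number limits the precision. Each probe was fitted here with limma 3.58.1 in R 4.3.3 (lmFit, eBayes) over 2 arms of 5 and 7 hearts, and with 4 genotypes for MatKO against WT and KO against PatKO. Exact permutation tests were two-sided. Tables were made in Python 3.11.15 with pandas 2.3.3 and numpy 2.4.6. Of the probes, 34875 had 1 symbol in the platform annotation (19056 genes) and 10374 were not listed. Gene lists, 39 in all, used the brightest probe of each gene. The named genes were Ddc, every called probe, the 12 largest increases and decreases that met the criterion in all 12 leave-out fits with a mean of 7 or more, and the members of each list with the lowest p (at most 4), with defining markers and neighbours of Ddc. The groups, lists and rules were chosen with earlier results of these data known. On simulated data for 45267 probes in these arms, limma recovered 30 of 78 probes changed by 0.5, 55 of 64 changed by 1 and 58 of 58 changed by 2, with 10 false calls. Alternatives were each heart left out, either control genotype alone, 4 genotypes in the fit, array weights, a trended and robust variance, a replicate block, Xist or the liver list as a covariate, 100 added to linear signals, and dim probes left out.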

Additional observations from a re-analysis of the deposited data

Results flagged for a closer look

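Single hearts stood apart from the rest of their arm in 12 of the 132 sets of values examined, where chance sets apart about 1 in 20. The Ddc probe ILMN_1260450 was 9.12 in the KO heart, and its nearest ablated heart was at 10.22. Cstdc4 was 9.86 in PatKO replicate 2, with the next at 8.42. Sema5a was 8.80 in PatKO replicate 1, with the next at 9.69, so its difference was drawn downwards by 1 heart. Moxd1 was 8.92 in the KO heart, nearer the expressing hearts than the 8.47 of the next ablated heart. Plek was 6.18 in WT replicate 1, with the next expressing heart at 6.77. The other 7 were means of gene lists. Wnt and R-spondin genes were at 0.18 in the KO heart, where the other 4 ablated hearts were at −0.10 or below, and at 0.21 in MatKO replicate 3. WT replicate 2 was at 0.38 for the hypoxia response and 0.36 for the glucocorticoid response, and WT replicate 1 was at −0.18 for immediate early and heat shock genes. Embryonic globins were at −1.03 in WT replicate 3, and skeletal muscle genes were at 0.58 in PatKO replicate 2. What sets these hearts apart was not tested.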

How the results depend on the processing

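The decrease of the 3 Ddc probes was called under every alternative, with −5.73 to −5.30, −3.74 to −3.41 and −4.13 to −3.81 when single hearts were left out. For ablated against expressing hearts, 3 to 19 probes were called with 1 heart left out (4 with all, 19 without PatKO replicate 3) and 248 to 540 met the criterion (318 with all, 540 without WT replicate 3). The criterion was met by 115 probes with 100 added to the linear signals, 636 with MatKO hearts as the only controls, 147 without dim probes and 603 with the liver list as a covariate. For MatKO against WT, 0 to 4 probes were called and 271 to 964 met the criterion with 1 heart left out (964 without WT replicate 1), and 110 met it without dim probes. For KO against PatKO, 8 to 27 were called and 499 to 683 met the criterion with 1 heart left out, 53 were called with a trended and robust variance, and without dim probes 1 was called and 151 met the criterion. Hearts of the same replicate number had a median correlation of −0.153 over 10 pairs, against 0.0987 over 30 pairs of different number. Single pairs ran from −0.346 to 0.537 for the same number and from −0.403 to 0.346 for different numbers. With so few pairs and so wide a spread, these values cannot settle whether the numbers mark a pairing or batch. With a replicate block 3 probes were called and 383 met the criterion for ablated against expressing hearts, and 0 were called for KO against PatKO. Of the values of single genes under alternatives, 494 kept their side of the criterion or the call and 55 did not, and none reversed. The 24 genes were chosen for meeting the criterion in each of the 12 leave-out fits. Their values in those fits are among the 494 by that choice and say nothing of stability. Outside those fits, 17 values were lost with the liver list as a covariate and 16 with WT hearts as the only controls. Dim probes, 1 KO heart and no record of litter or slide limit every comparison, and the cause of these shifts was not tested.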
